A study of Mus musculus with 16 samples.

Results

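Microexons are internal exons so short that they add only a few codons to a messenger RNA. Here they are the internal exons of 3 to 27 nt in the transcript assembly of this study, each taken once by chromosome, strand, start and end, where an internal exon is neither the first nor the last of its transcript. The assembly held 2011 of them among 207864 internal exons (0.967%), in 1447 gene models and 4796 transcripts. They were chosen by length and position alone, with no measured value. The level of each was its inclusion, the percent of the deposited values of all transcripts spanning the exon that came from transcripts with the exon.

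RNA came from 8 tissues of adult C57BL/6J mice, an inbred wild-type strain with no further treatment. Brain was sampled as whole brain and as 3 of its parts (cerebellum, cortex, olfactory bulb), and the nonbrain group comprised heart, kidney, liver and an organ labelled testis. Each tissue gave 1 library for each of 2 probe designs of CaptureSeq, in which libraries are hybridized to oligonucleotide probes before sequencing, so that the targeted transcripts are read at high depth. Inclusion was taken from the design aimed at splice junctions, and the design aimed at lncRNAs served as a second measurement of the same tissues. The comparison of 4 brain with 4 nonbrain libraries therefore rests on the spread between tissues, and its p-values carry no information on how mice differ. The parts of the brain overlap with whole brain, whereas the nonbrain tissues are separate organs. Brain and nonbrain RNA was also extracted with different kits, captured in separate pools and amplified for different numbers of cycles, and these steps cannot be told apart from the tissue.

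In vertebrates, most regulated microexons are known from neurons. The splicing factor Srrm4 (nSR100), with its relative Srrm3, promotes their inclusion by binding UGC-containing sequence just upstream of the exon, and Ptbp1, which neurons turn off, represses many of them. Microexons often keep the reading frame and change a few residues at the surface of a protein domain, where they alter binding between proteins of the synapse, the cytoskeleton and vesicle traffic. Heart and skeletal muscle have a microexon program of their own, part of which is shared with neurons and involves Rbfox proteins.

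The sequences of the microexons on which the results turn are given here in their spliced context, with 30 nt of each neighboring exon in lower case and the microexon in capitals, 5′ to 3′. They were read from GENCODE M21 transcripts (GRCm38). The first set was included in brain and mostly skipped in the nonbrain tissues:
Ppfia1, 27 nt: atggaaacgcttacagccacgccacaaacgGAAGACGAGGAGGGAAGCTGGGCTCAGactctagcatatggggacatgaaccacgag
Atp6v0a1, 18 nt: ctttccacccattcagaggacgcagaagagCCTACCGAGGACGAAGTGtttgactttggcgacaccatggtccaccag
Dync2h1, 21 nt: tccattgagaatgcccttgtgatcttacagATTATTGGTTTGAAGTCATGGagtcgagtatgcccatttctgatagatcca
Asap1, 9 nt: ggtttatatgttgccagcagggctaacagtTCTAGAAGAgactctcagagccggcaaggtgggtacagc
Git1, 27 nt: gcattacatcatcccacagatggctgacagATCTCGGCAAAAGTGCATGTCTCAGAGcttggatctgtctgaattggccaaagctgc
Git2, 6 nt: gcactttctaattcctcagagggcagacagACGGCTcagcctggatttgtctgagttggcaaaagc
Vps8, 6 nt: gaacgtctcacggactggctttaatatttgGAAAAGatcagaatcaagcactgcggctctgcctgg
Vti1a, 21 nt: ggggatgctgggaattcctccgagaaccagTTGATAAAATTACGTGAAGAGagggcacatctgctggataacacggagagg
Cpeb4, 24 nt: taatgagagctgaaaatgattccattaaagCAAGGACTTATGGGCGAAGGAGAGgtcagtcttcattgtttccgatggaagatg
Mon2, 3 nt: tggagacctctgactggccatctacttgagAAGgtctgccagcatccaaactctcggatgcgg

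The second set was included less in brain or, in Clasp2, in the opposite direction within 1 gene, and Mef2d stands for the microexons that heart shared with brain:
Clasp2, 24 nt, brain lower: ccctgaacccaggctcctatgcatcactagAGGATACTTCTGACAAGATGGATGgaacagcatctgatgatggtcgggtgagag
Clasp2, 18 nt, brain lower: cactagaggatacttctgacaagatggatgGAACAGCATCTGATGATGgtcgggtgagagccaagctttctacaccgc
Clasp2, 24 nt, brain higher: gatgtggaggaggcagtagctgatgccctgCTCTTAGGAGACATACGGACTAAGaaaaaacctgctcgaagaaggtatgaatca
Tnnt2, 9 nt: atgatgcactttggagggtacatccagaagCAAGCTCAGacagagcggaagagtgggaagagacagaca
Trappc13, 18 nt: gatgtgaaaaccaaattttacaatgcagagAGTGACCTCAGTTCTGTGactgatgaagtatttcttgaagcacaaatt
Mef2d, 21 nt: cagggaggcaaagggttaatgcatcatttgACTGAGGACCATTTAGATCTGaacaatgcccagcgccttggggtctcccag

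GENCODE M21 held the exact exon of 1893 microexons, of which 1608 were coding, 172 lay in noncoding transcripts, 71 in untranslated regions and 42 at the border of the coding sequence, while 118 were not annotated. Their median length was 22 nt. Lengths that are multiples of 3 made up 61.6% of them (1239), against 39.2% of the 192239 internal exons of 28 to 300 nt. Microexons were also more often alternative in the assembly, with at least 1 spanning transcript lacking the exon, in 1275 cases (63.4%) against 33.5% of the longer exons. The other 736 were part of every spanning transcript, so their inclusion is fixed at 100%.

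The splice junction libraries held 14309222 to 43889288 fragments, and heart was the shallowest. Inclusion was kept for a library where the summed value of the spanning transcripts reached 50, which corresponded to 31.2 fragments in heart and up to 173 fragments in whole brain. A share of 50% at that minimum has a 95% Wilson interval of plus or minus 16.6 percentage points in heart and 7.37 in whole brain. This covers counting error only and counts every fragment of the spanning transcripts. Only fragments that touch the exon or the junction skipping it report inclusion directly, so the true error is larger. For the tested microexons the median number of fragments of the spanning transcripts was 466 in heart and 2349 in whole brain. The precision of inclusion itself was not measured. The 4 neuron markers examined were higher in every brain library than in any nonbrain library. The library labelled testis went against its label, since none of 4 germ cell genes was highest there, whereas 3 of 4 keratinocyte genes (Krt5, Krt14 and Krt10) were. The nonbrain libraries also showed a low level of genes typical of each other's organs. Umod, a gene of the kidney tubule, had a summed value of 76182 in kidney, with 1474 in heart, 1637 in liver and 687 in the tissue labelled testis, against 0 in each brain library. The heart muscle gene Myh6 had 0 in heart itself, with 13063 in liver, 7016 in kidney and 4888 in the tissue labelled testis. The cause of that 0 was not tested, and 3 other heart muscle genes were highest in heart.

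The factors named above were themselves measured. Srrm4 had summed values of 227, 607, 343 and 740 in whole brain, cerebellum, cortex and olfactory bulb, against 130, 1.34, 47.0 and 3.20 in heart, kidney, liver and the tissue labelled testis. Srrm3 ranged between 698 and 1036 in brain and between 0 and 0.533 in the nonbrain libraries. Ptbp1 lay the other way, at 81.4 to 148 in brain and 231 to 782 in the nonbrain libraries. The 3 genes did not overlap between the groups, and neither did other splicing regulators examined, such as Ptbp2, Nova1 and Ptbp3. Some others, such as Rbfox2 and Mbnl1, did overlap. The share of all gene models without overlap was not counted, and these levels were not tested. In bulk tissue, fewer cells of a type and less RNA per cell cannot be told apart.

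Among alternative microexons, 684 of 1275 were measured in at least 3 of the 4 libraries of each group and were tested, together with all other alternative internal exons (40416 in all). Exons were called where limma's Benjamini-Hochberg adjusted p was under 0.05 and the difference was at least 10 percentage points. Inclusion was higher in brain for 81 microexons (11.8% of those tested, in 76 gene models), where 2.68% of all tested exons were called in that direction. Inclusion was lower in brain for 23 microexons (3.36%, in 19 gene models), where 2.45% of all tested exons were called. Among the exons of 28 to 300 nt, 2.52% were higher and 2.54% lower in brain, so longer exons were divided evenly and microexons were not. The median difference over the 684 tested microexons was 0.201 percentage points and over all tested exons -0.0236.

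**Figure D1:**
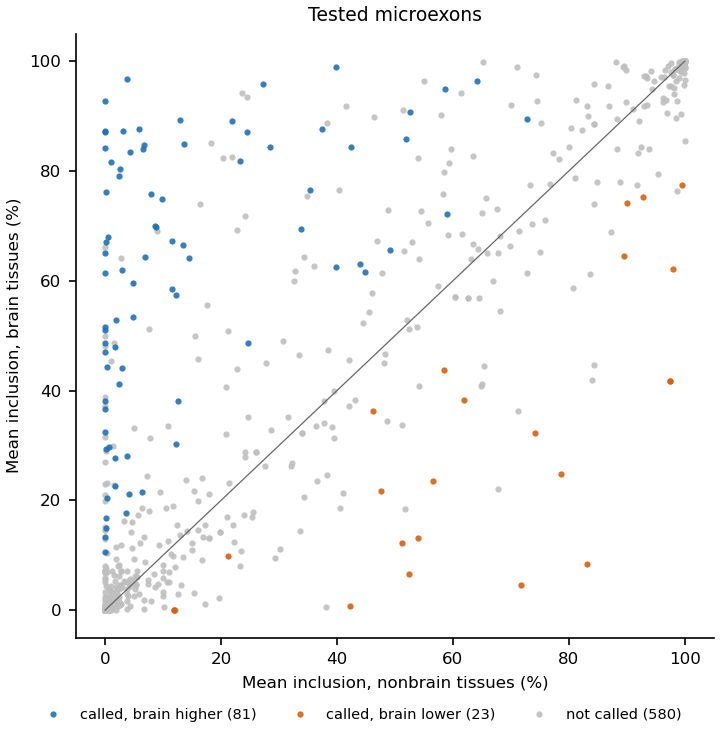
Mean inclusion in percent of the 684 tested microexons, with the brain tissues (n = 4) on the vertical axis and the nonbrain tissues (n = 4) on the horizontal axis, and a line of equal inclusion. The 81 microexons called higher in brain (blue) crowd at the left edge, the 23 called lower (orange) are scattered below the line, and the 580 not called (grey) lie mostly near both corners.

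All 104 called microexons belonged to protein-coding genes, and brain and nonbrain libraries overlapped for none of them. Without regard to the test, the libraries of both groups were separate with brain higher for 166 microexons (24.3%) and with brain lower for 54 (7.89%), against 8.6% and 9.75% of all tested exons. Of the microexons not called, 454 differed by less than 10 percentage points and 126 by 10 points or more. In all, 52 tested microexons were above 95% in every measured library and 169 were below 5% in every one. The largest adjusted p among the called microexons was 0.0476 for those higher in brain and 0.0477 for those lower, and the nearest ones not called with a difference of 10 points or more had 0.0507 and 0.0558.

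The microexons higher in brain differed by 10.6 to 93.0 percentage points, with a median of 48.8. In 29 of them, from 28 gene models, inclusion averaged over 50% in brain and under 10% in the nonbrain tissues. The range over the brain libraries had a median of 12.5 percentage points and was 10 points or less for 38 of 81. Over the nonbrain libraries the median range was 7.98 percentage points, with 10 points or less for 50 of 81. The test behind a call also favors a small spread within groups. Olfactory bulb held the lowest brain value for 35 of them and cortex the highest for 36. Of the 72 measured in all nonbrain libraries, heart had the highest nonbrain value for 44, against 10 each for kidney and the tissue labelled testis and 8 for liver. The same count was not made over all tested exons, and heart was the shallowest library.

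The largest difference was in Ppfia1, which encodes liprin-alpha-1, a scaffold that binds receptor phosphatases at sites of adhesion and release. Its 27-nt exon (chr7:144488691-144488717, minus strand, coding) was included at 95.05%, 97.0%, 96.5% and 98.3% in whole brain, cerebellum, cortex and olfactory bulb, against 10.5%, 0.0745%, 4.27% and 9.68e-05% in heart, kidney, liver and the tissue labelled testis. The switch was nearly complete in every library, with a difference of 93.0 ± 2.46 percentage points (SE, n = 4 each; limma adjusted p = 1.18e-05).

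The next largest difference, and another of the 10 largest, were in genes of acidified and clathrin-coated compartments. Atp6v0a1 encodes the a1 subunit of the membrane part of the vacuolar proton pump, and its 18-nt exon (chr11:101049459-101049476, plus strand) was included at 96.0%, 85.7%, 97.8% and 91.9% in the brain libraries. Heart, liver and the tissue labelled testis had 4.42e-08%, 0.00418% and 0.000364%, and kidney did not reach the minimum (difference 92.8 ± 3.03, limma adjusted p = 0.000101). In Ap1b1, the beta subunit of the AP-1 adaptor that sorts cargo into clathrin-coated vesicles, a 21-nt exon averaged 84.2 ± 15.9% in brain and 0.0725 ± 0.118% in the nonbrain tissues (SD, n = 4 each; limma adjusted p = 0.00192). Cerebellum, at 60.9%, was the lowest of the brain libraries there.

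Motor and actin genes followed. The 21-nt exon of Dync2h1 (chr9:7045349-7045369, minus strand), the heavy chain of the dynein that carries cargo back along cilia, was included at 82.1%, 89.9%, 86.6% and 89.9% in brain and at no more than 0.0883% in any nonbrain library. Its difference of 87.1 ± 1.77 had the smallest error of the 10 largest (limma adjusted p = 5.85e-06). Daam1, a formin that assembles actin filaments, had a 27-nt exon at 99.9%, 91.4%, 93.1% and 64.7% in brain, where olfactory bulb was lowest, against at most 0.0676% in the nonbrain libraries (difference 87.2 ± 7.43, limma adjusted p = 0.00145). Myo6, a myosin that moves toward the minus ends of actin filaments, had a 27-nt exon at 78.0%, 97.0%, 94.5% and 81.4% in brain, against 1.65%, 0.531%, 2.34% and 19.1% in the nonbrain libraries. The tissue labelled testis was thus the only nonbrain library with more than a trace of it (difference 81.8 ± 6.19, limma adjusted p = 0.000933).

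Regulators of Arf GTPases, which act in membrane traffic and cell adhesion, carried microexons of 6 to 27 nt. Asap1 is an Arf GTPase-activating protein, and its 9-nt exon (chr15:64153844-64153852, minus strand) was included at 89.0%, 75.5%, 95.3% and 89.4% in brain, against 7.48%, 1.66%, 1.31% and 2.05% in the nonbrain libraries (difference 84.2 ± 4.26, limma adjusted p = 0.000173). Its relative Asap2 also had a 9-nt exon, at 67.4%, 65.3%, 76.3% and 38.9% in brain, against 11.9% in heart and no more than 3.55e-07% in the other nonbrain libraries. Git1, a scaffold of the same enzyme class that binds the PIX exchange factors, had a 27-nt exon at 90.1%, 68.9%, 90.8% and 76.7% in brain, against at most 1.85% in the nonbrain libraries. The related Git2 had a 6-nt exon at 60.1%, 81.7%, 64.4% and 62.8% in brain, against 15.2%, 9.45%, 13.2% and 8.70% in the nonbrain libraries. In all 4 genes the brain libraries lay above the nonbrain ones, and cerebellum was the lowest of the brain libraries for Asap1 and Git1.

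Ptprk, a receptor tyrosine phosphatase that binds its like on neighboring cells, had an 18-nt exon (chr10:28570174-28570191, plus strand) at 81.6%, 73.8%, 92.3% and 91.2% in brain, against 5.99%, 9.16%, 3.91% and 7.62% in the nonbrain libraries. Vps8, a subunit of the CORVET complex that tethers early endosomes, had a 6-nt exon (chr16:21451356-21451361, plus strand) at 80.4%, 83.5%, 85.7% and 84.5% in brain, against 13.9%, 2.38%, 1.14e-09% and 0.954%. These 2 coding exons of Ptprk and Vps8 differed by 78.0 ± 4.32 and 79.2 ± 3.28 percentage points (limma adjusted p = 0.000266 and 6.84e-05). They complete the 10 largest differences with brain higher, when 1 microexon per gene is counted.

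**Figure D2:**
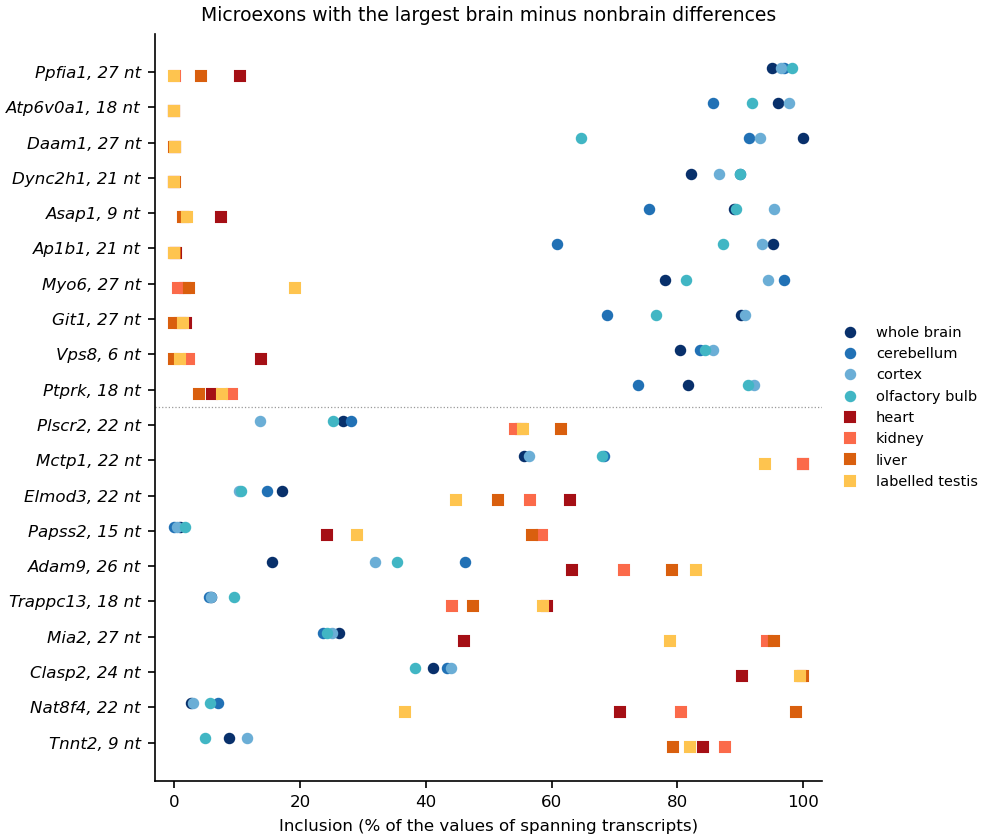
Inclusion in percent in each splice junction library for the 10 largest called differences with brain higher (above the dotted line) and the 10 largest with brain lower (below it). Circles are the brain libraries and squares the nonbrain libraries. The 2 kinds of mark overlap in none of the 20 rows, which was a condition of their choice. Libraries under the minimum are missing: kidney for Atp6v0a1, liver for Mctp1 and cerebellum for Tnnt2.

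Microexons lower in brain were fewer, and their differences ran between 10.1 and 74.8 percentage points, with a median of 33.1. Trappc13, a subunit of a tethering complex of the secretory pathway, had an 18-nt exon (chr13:104152165-104152182, minus strand) at 5.78%, 5.46%, 5.78% and 9.44% in brain, against 59.3%, 44.2%, 47.5% and 58.6% in heart, kidney, liver and the tissue labelled testis (difference -45.8 ± 3.80, limma adjusted p = 0.00135). Mia2, which acts at the exit sites of the endoplasmic reticulum, had a 27-nt exon at 26.2%, 23.6%, 25.1% and 24.3% in brain, against 46.1%, 94.2%, 95.4% and 78.8%. The brain libraries were nearly identical for Mia2 while heart stood between them and the other organs. Papss2 makes the activated sulfate that sulfotransferases use, and its 15-nt exon was at most 1.65% in brain, against 24.4%, 58.5%, 56.9% and 29.1% in the nonbrain libraries.

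The other members of the 10 largest with brain lower were a 26-nt exon of the metalloprotease Adam9, a 22-nt exon of Elmod3, and 22-nt exons of Nat8f4, Mctp1 and Plscr2 that GENCODE M21 does not hold. Adam9 had 15.6%, 46.2%, 32.0% and 35.5% in brain, against 63.3%, 71.4%, 79.2% and 83.0%. Elmod3, whose exon lies in an untranslated region, averaged 13.1 ± 3.31% in brain and 54.0 ± 7.68% in the nonbrain tissues (SD, n = 4 each), and a second exon of 17 nt in Elmod3 was called as well. Mctp1, with C2 domains that bind calcium, had 55.6%, 68.3%, 56.4% and 68.0% in brain, against 100%, 99.9% and 93.9% in heart, kidney and the tissue labelled testis. Leaving out single libraries ended the calls of Adam9, Mia2, Nat8f4 and Papss2, with limma adjusted p up to 0.0665, 0.0906, 0.0776 and 0.0964, and the count of 23 was 14 without cortex and also 14 without kidney. No assembled transcript has an intron over the exon for 6 of the 23 microexons lower in brain, Mctp1, Nat8f4 (22 nt) and the 17-nt exon of Elmod3 among them, and for 1 of the 81 higher in brain. The rest of their denominator came from transcripts in which an exon with other ends overlaps the position, and they have no value when the denominator is limited to the exon or an intron spanning it. With the denominator limited to the intron that joins the same flanking exon ends, the 22-nt exon of Elmod3 differed by -7.44 percentage points (limma adjusted p = 0.722) in place of -40.8. Brain included the Mctp1 exon in over 50% of its estimated transcripts and still lay below every other organ measured.

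The largest difference with brain lower was in Tnnt2, cardiac troponin T, a thin filament protein of heart muscle. Its 9-nt exon (chr1:135850379-135850387, plus strand) had 8.69%, 11.6% and 4.81% in whole brain, cortex and olfactory bulb, against 84.1%, 87.5%, 79.3% and 81.9% in the nonbrain libraries (difference -74.8 ± 2.51, limma adjusted p = 0.00011). In brain the summed values of Tnnt2 were 109, 2.30, 134 and 51.8, against 329864 in heart, 1382 in kidney, 2509 in liver and 990 in the tissue labelled testis. Whether the nonbrain values of Tnnt2 come from 4 independent organs was not tested. A further 2 exons of Tnnt2, of 3 and 4 nt, were called lower in brain, but the assembly separates them by a gap of 5 nt only, they occur in the same transcripts, and together they cover the ends of an annotated 12-nt exon. That 12-nt exon had 24.2%, 72.9% and 95.2% in whole brain, cortex and olfactory bulb, against 3.31%, 4.79%, 3.10% and 0.000427% (limma adjusted p = 0.101).

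The same pattern of sharing touched 36 tested microexons, whose second highest nonbrain summed value was under 5% of the highest. They included the 3 called exons of Tnnt2 and, among those higher in brain, the 24-nt exon of Ryr2 and the 21-nt exon of Cacna2d1. With every library under that 5% left out, 634 microexons could be tested, of which 79 were higher and 18 lower in brain.

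Several genes had more than 1 called microexon. Clasp2, which binds the growing ends of microtubules, was the only gene model with calls in both directions. Its 24-nt exon at chr9:113878750-113878773 (plus strand) was included at 66.7%, 75.3%, 82.9% and 74.5% in brain, against 13.5%, 0.413%, 17.8% and 7.38% in the nonbrain libraries (difference 65.1 ± 4.82, limma adjusted p = 0.000841). Upstream of it, the 24-nt exon at chr9:113858581-113858604 and the 18-nt exon at chr9:113860120-113860137 occurred in the same transcripts, and both had 41.1%, 43.4%, 44.0% and 38.3% in brain, against 90.3%, 99.6%, 100% and 99.6% (difference -55.7 ± 2.57, limma adjusted p = 0.00011). Brain thus skipped the upstream pair of Clasp2 exons in over 50% of estimated transcripts and used the downstream one, while the other organs did the reverse.

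Other genes had pairs of called microexons that lie in shared transcripts of the assembly, so the values of a pair are not independent. In Cadps2 2 transcripts hold both exons, in Ptk2 2, in Vav2 5 and in Porcn 3. In Cadps2, which primes dense-core vesicles for release, the 21-nt exon had 88.9%, 92.6%, 88.2% and 51.8% and the 9-nt exon 86.7%, 81.0%, 86.0% and 51.3% in the brain libraries, against at most 3.94% and 0.499% in the nonbrain libraries. Olfactory bulb was the lowest brain library for both. In Ptk2, focal adhesion kinase, the 18-nt exon averaged 81.8 ± 3.72% in brain and 23.2 ± 9.41% in the nonbrain tissues, and the 21-nt exon 84.4 ± 1.84% and 28.5 ± 17.6% (SD, n = 4 each); GENCODE M21 holds these exact exons only in noncoding transcripts. Vav2, a guanine nucleotide exchange factor, had a pair of 15-nt exons that averaged 44.1 ± 7.15% and 29.7 ± 7.33% in brain, against 2.87 ± 2.37% and 0.739 ± 0.18%. Porcn, the acyltransferase that modifies Wnt proteins, had exons of 15 and 18 nt at 85.2% and 85.3% in whole brain, against 41.5% for both in heart and no more than 22.4% in the other nonbrain libraries.

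Heart lay nearer to brain than the other nonbrain libraries did for some microexons. When the heart library was left out, 106 of 726 tested microexons (14.6%) were called higher in brain, against 3.17% of all 41433 exons tested without heart. With heart it was 81 of 684 (11.8%), against 2.68% of all exons. Of the microexons called without heart only, 23 had been tested with heart. In each of those 23, heart was above every other nonbrain library, in 13 by more than 20 percentage points. They were picked because heart lies apart, so their values are a description. Mef2d, a transcription factor of muscle and neurons, had a 21-nt exon at 94.3%, 93.7%, 95.03% and 93.6% in brain and at 78.7% in heart, against 4.34%, 9.05% and 2.46% in kidney, liver and the tissue labelled testis. The limma adjusted p of Mef2d was 0.0665 with heart. The 18-nt exon of Lrrfip1 had 95.6%, 95.3%, 95.9% and 87.0% in brain and 86.4% in heart, against 3.82%, 6.41% and 1.36% (limma adjusted p = 0.0993 with heart). The 27-nt exons of the related genes Tpd52 and Tpd52l2 behaved in the same way, with heart at 68.7% and 70.2% and no other nonbrain library above 8.73%. Others of this kind were Ctnnd1, the p120 catenin of cell junctions, with 18 nt at 84.2% to 96.3% in brain and 80.4% in heart against 24.2% to 34.7%, and Snx14, a sorting nexin, with 27 nt at 44.9% to 55.7% in brain and 52.8% in heart against 1.69% to 4.02%. Rbfox1, a splicing factor shared by neurons and muscle, had summed values of 1095 to 2493 in brain, 581 in heart and at most 27.4 in the other nonbrain libraries. Its relatives differed from it. Rbfox2 had 121 to 139 in brain, 237 in heart and 20.7 to 66.1 in the other nonbrain libraries. Rbfox3 had 3304 to 7105 in brain, 0 in heart and at most 3.34 in the other nonbrain libraries. The part of the Rbfox genes in the inclusion values was not tested.

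Length set the brain microexons apart. Of the 81 higher in brain, 75 (92.6%) had a length that is a multiple of 3, compared with 65.2% of the 23 lower in brain, 58.8% of those not called and 50.3% of the exons of 28 to 300 nt called higher in brain. Put the other way, 17.4% of the 431 tested microexons of such lengths were higher in brain (75) and 3.48% lower (15), while of the 253 of other lengths 2.37% were higher (6) and 3.16% lower (8). An exon of such a length leaves the reading frame downstream of it the same whether it is included or skipped. These shares rest on the same calls and carry no test of their own. The share of multiples of 3 among the microexons higher in brain ranged between 89.2% and 96.0% over the alternatives of processing in the splice junction libraries.

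**Figure D3:**
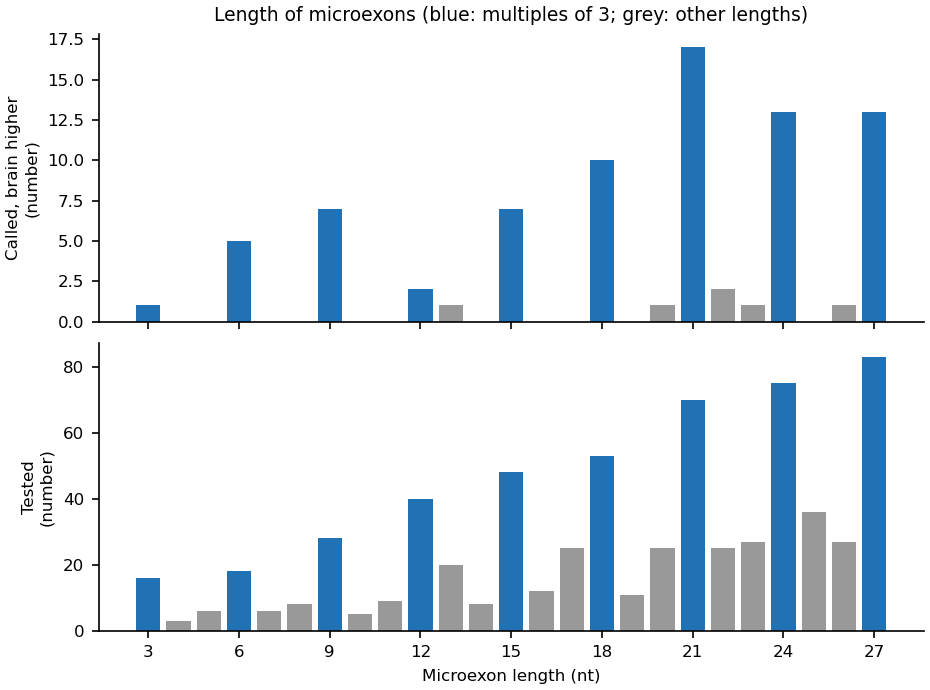
Number of microexons by length in nucleotides, with those called higher in brain in the upper panel and all tested ones in the lower panel. Multiples of 3 are blue and other lengths grey. Of 81 called microexons, 75 stand in the blue bars, and the highest bar is at 21 nt with 17.

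By length, the calls with brain higher were 13 of 85 at 3 to 9 nt, 10 of 130 at 10 to 15 nt, 28 of 196 at 16 to 21 nt and 30 of 273 at 22 to 27 nt. The most frequent single lengths were 21 nt (17 of 70 tested), 24 nt (13 of 75) and 27 nt (13 of 83). The introns beside the microexons higher in brain had medians of 1547 nt upstream and 1542 nt downstream, close to those beside the microexons not called (1393 and 1436.5 nt) and longer than beside the microexons present in every transcript (848.5 and 760.5 nt). Of the 79 microexons higher in brain with a sequence, 59.5% ended in AG. The share was 55.6% of the 18 lower in brain with a sequence and 49.8% of all microexons with a sequence. Where the assembly holds a skipping transcript that joins the same flanking exons, inclusion competes with plain skipping, which was so for 77 of the 81 higher in brain and for 11 of the 23 lower.

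Lists of genes by function were counted next, chosen with earlier results on microexons and on these data known. Of all tested microexons 11.8% were higher and 3.36% lower in brain, and of all tested exons 2.68% and 2.45%. The lists were not tested for an excess over these shares, and their choice limits what the counts can show. Among genes of vesicle traffic and synaptic release, 6 of 18 tested microexons were higher in brain and 0 lower, with a median difference of 10.2 percentage points. They were in Ppfia1 and Cadps2 (9 and 21 nt), described above, and in Vti1a, Trappc9 and Unc13b. Vti1a, a SNARE protein of the Golgi and endosomes, had a 21-nt exon at 44.1%, 46.5%, 43.2% and 43.5% in brain, against 0.714%, 0.451%, 1.27e-06% and 0.331% (difference 43.9 ± 0.746, limma adjusted p = 3.15e-06). Inclusion of the Vti1a exon was thus intermediate and nearly equal in all parts of the brain. Trappc9, of the TRAPP tethering complex, had a 27-nt exon at 82.7% to 88.8% in brain, against 47.4% to 63.6%. Unc13b, which primes synaptic vesicles, had a 6-nt exon at 8.08% to 13.9% in brain, against 0% to 0.232%. Of the others tested, Erc1 at the active zone (12 nt, 43.6 percentage points) and Snx14 (27 nt, 34.6) had the largest differences and were not called.

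Among genes of the cytoskeleton and motors, 6 of 27 were higher in brain and 2 lower, with a median of 11.7 percentage points. Besides Daam1, Asap1, Asap2 and the 3 exons of Clasp2, these were Sptan1 and Kif21a. Sptan1, the alpha chain of the spectrin under the plasma membrane, had a 15-nt exon at 95.9% in whole brain and 100% in the other brain libraries, against 66.6%, 28.3%, 45.4% and 19.1% in the nonbrain libraries (difference 59.1 ± 10.1, limma adjusted p = 0.0193). Kif21a, a kinesin that restrains microtubule growth, had a 15-nt exon at 56.2%, 45.8%, 59.4% and 45.2% in brain and at no more than 2.51e-31% in the 3 nonbrain libraries measured. Among those not called, the 18-nt exon of the mitochondrial kinesin Kif1b differed by 47.2 and a 21-nt exon of Kif21a by 43.3 percentage points.

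Of 17 tested microexons in genes of transcription, chromatin and translation, 5 were higher in brain and 0 lower, with a median of 16.7 percentage points. Cpeb4, which controls polyadenylation and translation of messenger RNAs in the cytoplasm, had a 24-nt exon (chr11:31918801-31918824, plus strand) at 69.0%, 75.6%, 73.0% and 62.4% in brain, against 0.0425%, 0.0647%, 14.1% and 20.5% (difference 61.3 ± 5.65, limma adjusted p = 0.00203). Eif4g1, the scaffold of the cap-binding translation initiation complex, had a 21-nt exon at 57.3%, 55.2%, 61.3% and 59.9% in brain, against 15.7%, 11.1%, 12.3% and 7.39% (difference 46.8 ± 2.09, limma adjusted p = 9.84e-05). The brain libraries lay closer together for Eif4g1 than for Cpeb4. Apbb2, an adaptor that binds the amyloid precursor protein, had a 6-nt exon at 84.9% to 89.8% in brain, against 67.9% in heart and 20.2% to 36.8% in the other nonbrain libraries. The other 2 were a 21-nt exon of Camta2, a calmodulin-binding transcription activator, at 24.6% to 58.8% in brain against 0.0338% to 5.83%, and a 23-nt exon of Phf21a, a reader of unmethylated histone H3, at 86.2% to 90.9% against 68.7% to 76.7%.

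Kinases and regulators of small GTPases had 6 of 17 higher in brain and 0 lower, with a median of 11.5 percentage points: the pairs in Ptk2 and Vav2, Git2, and Rapgef2. The last, an exchange factor for Rap, had an 18-nt exon at 77.4%, 63.1%, 72.0% and 65.2% in brain, against 28.2%, 26.9% and 46.5% in heart, kidney and liver. Channels, calcium and postsynapse had 4 of 9 higher and 0 lower, with a median of 14.9. Shank3, a scaffold of the postsynaptic density, had a 24-nt exon at 94.7%, 93.6%, 94.3% and 80.4% in brain, against 53.8%, 53.5% and 50.3% in heart, kidney and liver. Ryr2, a calcium release channel, had a 24-nt exon at 75.7%, 91.6%, 78.3% and 70.7% in brain, against 0.956%, 7.42%, 0.603% and 0.779%. The summed value of Ryr2 was 521928 in heart, above every other library. Cacna2d1, an auxiliary subunit of calcium channels, had a 21-nt exon at 63.0% to 68.2% in brain, against 44.3% to 53.8%, and Dlg1, a synaptic scaffold, a 21-nt exon at 10.5% to 18.9% against at most 0.402%.

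Of the exons called in these lists, those of Sptan1, Apbb2, Camta2 and Rapgef2 lost the call without single libraries (limma adjusted p up to 0.0592, 0.0963, 0.0663 and 0.095), and Unc13b differed by 9.53 percentage points without cortex. The remaining lists had fewer calls. Genes of cell adhesion and guidance had 6 tested microexons, of which only that of Ptprk was called (1 higher, 0 lower, median 18.8 percentage points), and 33 of their 50 microexons were measured mainly in brain. Genes of heart and skeletal muscle had 21 tested, with 0 higher, the 3 exons of Tnnt2 lower and a median of -0.233. A 15-nt and a 23-nt exon of Ldb3, a protein of the muscle Z-disc, differed by 21.3 and -19.7 percentage points and were not called (limma adjusted p = 0.402 and 0.198). Where a list had 0 calls in a direction, limma's unadjusted p was under 0.05 for 1 microexon lower in brain among channels, calcium and postsynapse, 1 among kinases and small GTPase regulators, 2 higher in brain among muscle genes, and 0 lower in brain in the lists of adhesion, vesicle traffic and transcription. The splicing regulators had 2 microexons in 25 genes, both outside the test. One of them, a 20-nt exon of Srrm3 itself, was at 10.8%, 13.8%, 3.53% and 4.99% in the brain libraries.

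A further 288 alternative microexons, in 190 gene models, were measured in at least 3 brain libraries but in fewer than 3 nonbrain libraries, 140 of them in no nonbrain library at all, and 89 were measured in at least 3 nonbrain libraries only. The 288 were not tested between the groups, by the rule of 3 libraries in each. Of the 288, 211 (73.3%) were multiples of 3 in length. Inclusion averaged under 5% for 65, between 5% and 50% for 92, between 50% and 95% for 92 and over 95% for 39. The parts of the brain lay within 10 percentage points of each other for 143 of the 288 and over 30 points apart for 47. The gene lists held 117 of them, among which cell adhesion and guidance came first with 33 microexons in 15 genes, followed by cytoskeleton and motors (25 in 11 genes), channels, calcium and postsynapse (23 in 11) and vesicle traffic (22 in 12).

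Adhesion genes of the synapse had sets of microexons with different levels. Ptprd, a receptor phosphatase that organizes synapses through partners selected by its microexons, had a 9-nt exon at 54.5%, 68.8%, 69.1% and 35.9% in whole brain, cerebellum, cortex and olfactory bulb, a 12-nt exon (start at 76135545 on chr4) at 56.1%, 74.5%, 68.7% and 83.8%, and an 18-nt exon at 19.5%, 74.5%, 37.8% and 19.7%. Cerebellum was the highest for the 18-nt exon of Ptprd. Tenm3, a teneurin that guides wiring, had a 21-nt exon at 0.0288%, 10.7% and 62.4% and a 27-nt exon at 0.0288%, 52.1% and 68.8% in whole brain, cortex and olfactory bulb. Tenm4, by contrast, had exons of 21 and 27 nt between 38.9% and 51.0% in every brain library.

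**Figure D4:**
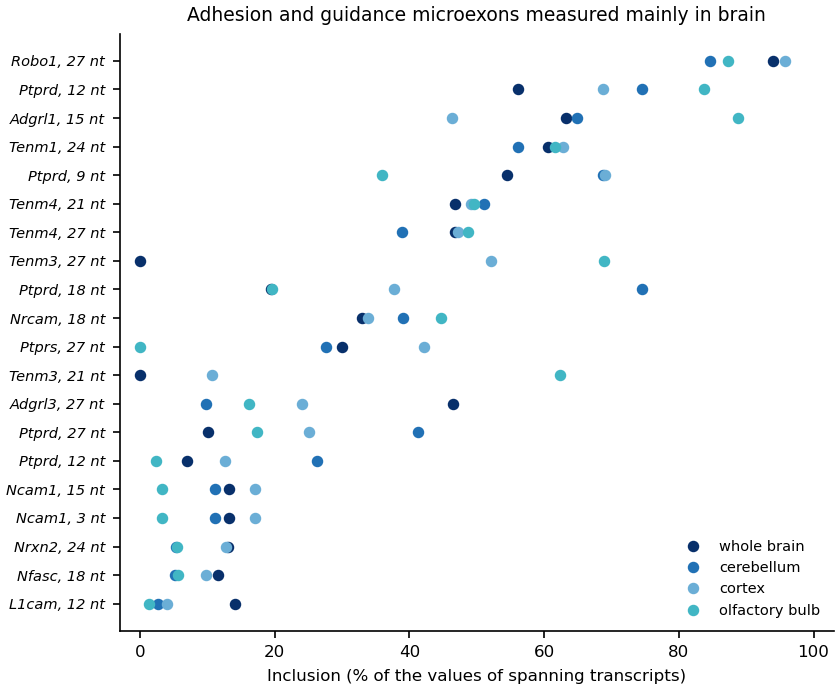
Inclusion in percent in each brain library for 20 microexons of adhesion and guidance genes that were measured mainly in brain and averaged between 5% and 95%, ordered by that mean. Each point is 1 library. The 21-nt and 27-nt exons of Tenm3 and the 18-nt exon of Ptprd spread widely, while the exons of Tenm4 lie close together.

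Channels, vesicle proteins and kinases were also measured mainly in brain. Cacna1b, the pore of N-type calcium channels at nerve terminals, had a 6-nt exon at 88.1%, 90.0%, 85.5% and 84.6% and a 12-nt exon at 91.1%, 90.3%, 92.5% and 94.1%. Dnm3, a dynamin, had a 12-nt exon at 81.5% to 89.1%, and Apbb1, a relative of Apbb2, a 6-nt exon at 66.6% to 84.1%. The 18-nt exon of Src, by which neurons make their own form of this kinase, had 62.9%, 73.3%, 80.1% and 70.9%. Shank2, a relative of Shank3, had exons of 9, 21 and 21 nt that were all lowest in cerebellum or olfactory bulb and highest in cortex (60.8% to 63.0%). The 6-nt exon of Snap91, a clathrin assembly protein, had 76.2%, 25.2% and 79.1% in whole brain, cortex and olfactory bulb but 0.00305% in cerebellum.

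Single tissues were then set against the others of their group, as a description without a test, since each has 1 library. In cerebellum, a 6-nt exon of Pcdh15, a cadherin of hair cell tip links, was at 88.9%, against 17.2%, 40.4% and 34.5% in whole brain, cortex and olfactory bulb. An 18-nt exon of Fryl, a relative of the Furry protein of cell shape, was at 14.1% in cerebellum, against 80.4% to 88.5% in the other brain libraries, and a 27-nt exon of Fam168a at 7.64%, against 74.1% to 100%. In cortex, the 3-nt exon of Mon2 was highest at 99.4%, and a 21-nt exon of Mdga2, a brake on neuroligins, lowest at 46.9%, against 90.6% to 100%. In olfactory bulb, a 21-nt exon of Nrp2, a semaphorin receptor, was highest at 42.7%, against at most 2.81%, and a 24-nt exon of the actin crosslinker Flna lowest at 0.628%, against 56.8% to 86.4%. Whole brain lay above its parts for a 27-nt exon of Gcdh (88.5%, against 21.2% to 41.5%) and a 9-nt exon of Map4k4 (61.4%, against 7.88% to 19.6%), although it contains those parts. These exons of single brain libraries were picked for the widest gaps among 898 microexons measured in all 4 brain libraries. Denominators were low for Map4k4 in whole brain (70.3) and for Fam168a in the brain libraries (71.3 to 115). No assembled transcript has an intron over the exons of Gcdh and Nrp2.

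Among the nonbrain tissues, the 3-nt exon of Tbc1d4, a Rab GTPase-activating protein through which insulin acts on glucose uptake, was at 3.27e-10% in heart, against 85.9%, 90.5% and 94.7% in kidney, liver and the tissue labelled testis. A 24-nt exon of the nonmuscle myosin Myh14 was at 3.75% in heart, against 75.2% to 91.3%. Heart lay highest for the 18-nt exon of Lrrfip1 given above and for a 21-nt exon of Tmed2 (81.4%, against at most 2.29%). In kidney, an 18-nt exon of Arvcf, a catenin, was at 98.7%, against 1.86%, 0.088% and 43.9% in heart, liver and the tissue labelled testis. In liver, an 18-nt exon of Dock11 was at 4.19e-06%, against 75.9% to 99.9%, and an 18-nt exon of Adam22 at 2.72%, against 66.9% to 79.8%. The heart denominator of Tmed2 was low, at 56.1. The liver denominators were also low, at 68.7 for Arvcf, 94.2 for Dock11 and 75.7 for Adam22. All exons of this paragraph were picked for the widest gaps among 693 microexons measured in all 4 nonbrain libraries. The tissue labelled testis was highest for an 18-nt exon of Mon2 (64.8%, against at most 0.767%) and for an 18-nt exon of Myo7a (44.2%, against at most 0.0377%), and lowest for a 22-nt exon of Mia2 (43.6%, against 82.3% to 96.1%).

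The shortest microexons, under 6 nt, numbered 54, of which 46 were measured in at least 1 library, 41 of them alternative. Inclusion was above 95% in every measured library for 9 of the 46 and below 5% in every one for 13. Of the 9, 5 lie in every transcript that spans them, which fixes their value at 100%, and 4 are alternative. The 3-nt exon of Mon2 (chr10:123023086-123023088, minus strand), a regulator of traffic between endosomes and the Golgi, adds the bases AAG. It had 44.7%, 55.5%, 99.4% and 69.0% in brain, against 0.121%, 0.0046%, 0.0291% and 0.572% in the nonbrain libraries, and it was the only 3-nt exon called higher in brain. The 3-nt exon of Tbc1d4 also reads AAG. By contrast, the 3-nt exon of Wdr41 lay between 62.0% and 65.5% in all 8 tissues, and that of Psd3 between 41.04% and 59.0%. The 3-nt exon of Asxl2 at chr12:3445452 was at 100% in every library.

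So short an exon can be placed at more than 1 site of an intron. Of 28 pairs of microexons of the same length within the same intron, 1 had the same bases. It was a pair of 3-nt exons of Cdh23, the partner of Pcdh15 in tip links, both AAG between the same neighboring exons. The exon at chr10:60379457 had 55.4%, 47.7%, 74.7% and 69.4% in brain, and that at chr10:60382496 no more than 4.16e-13%. In a spliced read these 2 exons of Cdh23 cannot be told apart, so the values show how the authors' software divided the fragments.

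Of the 118 microexons that GENCODE M21 does not hold, 11 were part of every spanning transcript. The 5 alternative ones with the highest inclusion were in Wapl (19 nt), A230006K03Rik (15 nt), Mctp1 (22 nt) and Nat8f4 (21 and 22 nt). No assembled transcript has an intron over the exons of Wapl, Mctp1 and Nat8f4. Their values therefore divide transcripts with the exon from those in which an exon with other ends overlaps the position. The exon of Wapl, which releases cohesin from chromosomes, had 71.6%, 44.6%, 82.3% and 47.1% in brain, against 18.2%, 100% and 100% in kidney, liver and the tissue labelled testis. The brain denominators of Wapl were 61.1, 91.5, 67.2 and 52.1, near the minimum of 50. The exon of the noncoding gene A230006K03Rik had 100%, 84.3% and 84.0% in whole brain, cortex and olfactory bulb and was below the minimum elsewhere. The 22-nt exon of Nat8f4 had 2.65%, 6.97%, 3.04% and 5.66% in brain, against 70.9%, 80.6%, 98.9% and 36.6%. The summed value of Nat8f4 was 17628 in liver, against 262 to 435 in the brain libraries and 311 to 1121 in the other nonbrain libraries.

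The lncRNA design gave a second, shallower view of the same tissues, with probes aimed at lncRNAs. The tested microexons had medians of 11 to 47.5 fragments of the spanning transcripts behind each value there. Of 361 microexons that could be tested, 11 were higher and 1 lower in brain, where 0.517% and 0.38% of all 18970 tested exons were. Of the 81 microexons higher in brain in the splice junction libraries, 31 could be measured, 27 with the same sign, 16 of them by at least 10 percentage points and 2 called. Their median difference was 10.1 percentage points in the lncRNA libraries and 55.8 in the splice junction libraries. Of the 23 lower in brain, 10 were measured, 7 with the same sign, with medians of -3.74 and -31.8. At a minimum value of 200, 16 microexons higher in brain were measured, 14 with the same sign, with medians of 2.88 and 44.0.

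**Figure D5:**
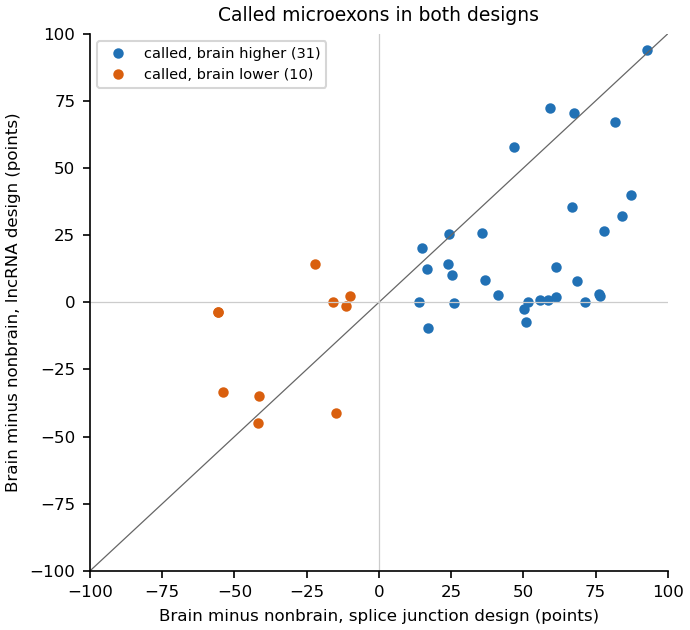
Brain minus nonbrain difference of inclusion in percentage points for the 41 called microexons measured in both designs, with the lncRNA design on the vertical axis, the splice junction design on the horizontal axis and a line of equal differences. Of 31 microexons higher in brain (blue) 27 lie above 0, but many lie near 0 on the vertical axis, and of 10 lower in brain (orange) 7 lie below 0.

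The size of the difference therefore depended on the design for many microexons. Atp6v0a1 (18 nt) differed by 93.8 percentage points in the lncRNA libraries, Sptan1 (15 nt) by 72.4 and Eif4g1 (21 nt) by 57.9, against 92.8, 59.1 and 46.8 in the splice junction libraries. Myo6 (27 nt) differed by 67.3 percentage points, against 81.8. In contrast, both exons of Ptk2 differed by less than 1 percentage point (0.801 and 0.732), the 15-nt exon of Kif21a by 0.0739 and the 24-nt exon of Ryr2 by 2.37. The 6-nt exon of Apbb2 differed by -2.37. Across the microexons measured in both designs in a tissue (336 to 422), Pearson's r ranged between 0.544 and 0.623 and the median absolute difference between 4.74 and 11.8 percentage points. These points share a tissue and an assembly but no library, and the cause of the smaller differences was not tested.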

How the data were processed

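RNA of 8 mouse tissues was captured with 2 probe designs, with 1 library per tissue and design (16 libraries). The authors aligned reads to GRCm38 with TopHat2, using a transcriptome index of GENCODE M4, assembled each library with Cufflinks 2.2.1, merged the assemblies with Cuffmerge and quantified transcripts with Cuffnorm 2.2.1. For every transcript and library, the authors deposited Cuffnorm's normalized fragment estimate, a signal value that need not be whole. Fragments are divided among isoforms by the authors' software, so inclusion is an estimate and not a count of junction reads, and a transcript missing from the assembly enters neither part of the ratio. Sums over a gene model are whole multiples of a step per library, which converts them to fragments.

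Inclusion of an internal exon was the summed value of the transcripts with the exon over that of all transcripts of the gene model whose span covers it, in percent, for libraries with a denominator of at least 50. Brain and nonbrain libraries of the splice junction design (n = 4 each) were compared with limma 3.58.1 (R 4.3.3) over all 40416 alternative internal exons measured in at least 3 libraries of each group, with Benjamini-Hochberg adjustment. A call needed an adjusted p under 0.05 and a difference of at least 10 percentage points. An exact two-sided permutation test over the 70 assignments cannot go below p = 0.0286. The fit was tested on simulated data. Values after ± are SE for differences and SD for means. Samples were grouped by their tissue labels. Annotation and sequences came from GENCODE M21, and tables were handled in Python 3.11.15 (pandas 2.3.3, NumPy 2.4.6, SciPy 1.17.1).

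The named microexons are the 10 largest called differences in each direction with separate groups, an annotated symbol and 1 microexon per gene model. To them were added the called microexons of 8 gene lists, with the largest differences of each list, and, for each tissue, the 2 farthest above and the 2 farthest below the others of its group (most are given, and some items that these rules take are not reported here). The last were those under 6 nt and the 5 unannotated alternative ones with the highest inclusion. The microexons added by leaving out heart were chosen after their values were seen. The members, lists and tests were chosen with earlier results of these data known. Alternatives were other minimum values, transformations, denominators and libraries.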

Additional observations from a re-analysis of the deposited data

Results flagged for a closer look

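In 34 groups of 4 libraries of the named microexons, Dixon's test marked 4 libraries that stand apart from the others of their group, and chance marks about 1 in 20 groups. Trappc13 (18 nt) had 9.44% in olfactory bulb, against 5.46% to 5.78% in the other brain libraries. Asap1 (9 nt) had 7.48% in heart, against 1.31% to 2.05% in the other nonbrain libraries. Myo6 (27 nt) had 19.1% in the tissue labelled testis, against 0.531% to 2.34%. Clasp2 (24 nt, brain lower) had 90.3% in heart, against 99.6% to 100%. Separate groups were a condition for naming these microexons, so none of the 4 flagged libraries could overlap the other group.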

How the results depend on the processing

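Counts of microexons higher and lower in brain (81 and 23) were 107 and 27 at a minimum denominator of 20, 62 and 19 at 200, and 73 to 106 and 14 to 26 when 1 library was left out. The 106 came without heart, the 26 without whole brain, and the 14 without cortex and, again 14, without kidney. Microexons lower in brain numbered 15 when the denominator was limited to the exon or an intron spanning it and 11 when limited to the intron joining the same flanking exon ends, settings in which fewer microexons could be tested (those higher numbered 89 and 87). The lncRNA libraries gave 11 and 1, and 5 and 1 at a minimum of 200. The arcsine, logit, length-scaled and 1-per-gene alternatives gave 98, 99, 77 and 62 higher and 23, 20, 24 and 18 lower. The denominator by flanking exon ends, the length scaling, the minimum of 200 in the lncRNA libraries and the 5% limit were chosen after seeing the data.

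Of 718 values of the 47 named called microexons under alternatives in the splice junction libraries, 665 kept their call, 53 lost it and 0 changed sign, and 33 of the 47 kept it throughout. The call of 9 was lost without 1 library, as given above, for Adam9, Apbb2, Camta2, Mia2, Nat8f4, Papss2, Rapgef2 and Sptan1 without any of at least 4 libraries and for Unc13b without cortex. In the lncRNA libraries 19 of 21 lost the call, 1 kept it and Apbb2 (6 nt) turned to -2.37.

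No paired analysis of brain against nonbrain was possible because the labels do not name the mouse behind a library. With 1 library per tissue, variation between mice was not measured, and shallow heart values limit small differences most.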
